A study of Mus musculus with 6 samples.

Results

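The profile described here is that of unperturbed anterior presomitic mesoderm (PSM), the paired strips of tissue beside the neural tube from which the somites of the mouse embryo form. It rests on the 3 control pools among the 6 samples of the series, and the other 3 samples were used for no comparison. Control embryos were R26R AC/AC, homozygous for an allele at the ROSA26 locus, on a background labelled C57BL6/6J and taken at embryonic day 8.75. The labels do not spell out AC. It is taken here for A-CREB, a protein that blocks DNA binding by CREB transcription factors and that the allele makes only after Cre recombinase has acted, and the controls carry no Cre. The controls were therefore allele carriers and not wild-type embryos. The tissue was the front 2/3 of the PSM, freed by hand from the rear 1/3 and from the formed somites, and each pool held the PSMs of 3 embryos, 9 in all. A pooled value averages its embryos, so differences between embryos within a pool were not measured. RNA was hybridised to Affymetrix mouse arrays, on which a gene is read by 1 or more probe sets, each a group of short probes that gives 1 signal.

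The PSM is supplied with cells by the tail bud at its rear and gives off an epithelial somite at its front with each cycle of an oscillator built on Notch signalling. Wnt and FGF signals are highest at the rear and keep cells immature, while retinoic acid reaches the front from the somites. Cells in the front stretch switch on Mesp2 and its targets, set the next boundary and fix the front and rear of the future somite.

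All signals are linear and scaled by the authors, and carry no unit. Of 19551 probe sets other than array controls, 17348 carried 1 gene symbol and stood for 10290 genes, and each gene was read by its probe set of highest mean log2(signal + 1) over the 3 pools. Genes were then ranked from 1 (highest) to 10290. The median gene had a signal of 739, the 10th percentile was 120, the 90th was 4741 and the 99th was 19226. Probe sets differ in how strongly they bind, so these ranks order signals and not numbers of transcripts. A measure of that came from the 4387 genes with more than 1 probe set: over 11214 pairs of probe sets of the same gene, the median gap was 1.46 on the log2 scale, or 2.76-fold, and the 90th percentile was 4.14, or 17.7-fold. The 90th percentile served as the yardstick here. One gene was called brighter than another only where their gap passed it and had the same sign in all 3 pools.

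Pool 1 stood apart from the other two before any gene was considered. Over probe sets (not independent replicates), Pearson's r was 0.978 between pools 1 and 2, 0.981 between pools 1 and 3, and 0.991 between pools 2 and 3. Median signals were 491, 523 and 530 in pools 1, 2 and 3. The 3' to 5' signal ratio of the dap transcript spiked in before labelling was 22.9, 12.2 and 11.1, that of Gapdh was 1.15, 0.945 and 0.876, and that of Actb was 2.05, 1.53 and 1.72. Pool 1 was thus highest in all 3 ratios. It was also highest for the array control BioB, with 531, 62.4 and 74.0 on the 5' probe set and 502, 47.2 and 53.4 on the 3' probe set. BioC had 1471, 1209 and 1240, while CreX was lowest in pool 1, with 18897, 21077 and 19259. The part of these array differences in the values that follow was not tested. The labels call the pools biological replicates, the spread given is the SD over 3 pools, and with 1 group and 3 arrays no test between groups applies. Values are written in the order of pools 1, 2 and 3.

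Promoters are printed as examples and are not a sample of the top ranks, since ranks 1, 2, 4 and 5 are left out. They come from ribosomal protein genes at ranks 3, 6 and 7, from a globin and from a PSM regulator. Each is the 100 bases just before the RefSeq start of the gene (GRCm38.p6), on the strand of the gene, with capitals for a motif: CCGGAAG, a core of ETS factor sites, or TATAAA, the TATA box. The genes are Rpl38 (chr11:114668480-114668579, plus strand), Rps3a1 (chr3:86142669-86142768, minus strand), Rps18 (chr17:33955666-33955765, minus strand), Hba-x (chr11:32276500-32276599, plus strand) and Tbx6 (chr7:126781383-126781482, plus strand).
Rpl38: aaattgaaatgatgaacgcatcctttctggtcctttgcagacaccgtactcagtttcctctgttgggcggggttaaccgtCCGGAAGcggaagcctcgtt
Rps3a1: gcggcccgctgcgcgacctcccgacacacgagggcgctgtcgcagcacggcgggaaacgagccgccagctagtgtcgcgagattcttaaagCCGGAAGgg
Rps18: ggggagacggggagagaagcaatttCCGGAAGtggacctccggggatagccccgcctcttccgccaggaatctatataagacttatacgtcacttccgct
Hba-x: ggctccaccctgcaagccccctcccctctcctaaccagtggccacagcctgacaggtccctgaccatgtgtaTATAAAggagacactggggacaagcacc
Tbx6: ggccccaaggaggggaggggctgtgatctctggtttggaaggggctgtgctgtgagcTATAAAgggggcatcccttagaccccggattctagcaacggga

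Each promoter printed above holds a marked motif, whereas the 100 bases before Ripply2 and Hbb-y, not printed, hold neither CCGGAAG nor TATAAA. RefSeq promoters matched 8403 of the 10290 genes, and motifs were searched on both strands of the 250 bases before the start. Besides the ETS core and the TATA box, whose letters cannot overlap each other, these were the CCAAT box, the GC box (GGGCGG) and a core of RBPJ sites (GTGGGAA), some of which can overlap. CCGGAAG stood in 16.8% of all matched promoters, in 17 of 42 promoters of cytosolic ribosomal proteins (40.5%), in 9.09% of the other genes of the top 1% and in 9.08% of the lowest 10% of genes. TATAAA stood in 7.63% of all promoters, in 4 of 42 of the ribosomal proteins, in 3 of 15 of the anterior PSM list described next and in 2 of 7 of the primitive blood markers. Among the 15 promoters of the anterior PSM list, 0 held CCGGAAG and 9 held CCAAT, which stood in 41.0% of all promoters. The RBPJ core stood in 2 of the 15 and in 6.44% of all promoters, and the GC box in 8 of the 15 and in 66.4% of all. These are matches of letters in a window, and no occupancy was measured.

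For anterior PSM and segmentation, 19 of the 20 listed genes were measured (Ripply1 was not analysed here). Of these, 11 (57.9%) lay above the median gene of each of the 3 pools (above the median gene, in what follows), against 46.5% of all genes. Their median percentile was 59.7, against 50 by construction, and 1 was in the top 10% of genes, which holds 10% of all genes. Without pool 1 the count was 12 of 19. The list therefore sat slightly above the middle of the ranking.

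Dll1, the Delta ligand that drives Notch signalling between PSM cells, had signals of 3089, 3497 and 3267 (3284 ± 205, 84.8th percentile). Ripply2, which ends the activity of Tbx6 at the forming boundary, had 1021, 1194 and 995 (1070 ± 108, 59.7th percentile). Both lay above the median gene in every pool. Meox1, a homeobox gene of the front PSM and young somites, had 711, 871 and 1007 (863 ± 148), above the median gene in pools 2 and 3 and below it in pool 1. Tbx6, the T-box factor that gives paraxial mesoderm its identity, had 501, 607 and 541 (550 ± 53.0, 41.6th percentile), below the median gene in all 3 pools. Each of these 4 defining markers was read by a single probe set, so a low rank does not show that the transcript was scarce.

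Lef1, the DNA-binding partner of beta-catenin in the PSM, had the highest signal of the list, with 5042, 5642 and 5240 (91.3rd percentile). Its other probe set had a mean of 276. Nrarp, a feedback inhibitor of Notch, had 2675, 3390 and 3461, and Dll3, the Delta homologue that acts inside the cell, with 1540, 2695 and 2111. Pool 1 was the lowest of the 3 for all of these. Among genes that mark the boundary, Epha4 (1880, 1592 and 1765) and the protocadherin Pcdh8 (1668, 2104 and 1548) lay above the median gene throughout. So did the forkhead genes Foxc1 (863, 1457 and 1132) and Foxc2 (1194, 2233 and 1855), which are needed for paraxial mesoderm to form somites. Hes7, the repressor at the core of the oscillator, was nearly constant over pools, with 1067, 1036 and 1032 and a range of 0.05 on the log2 scale.

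Of the list, 4 genes lay in the lowest 25% of all genes. Mesp2, the switch for the next boundary, had 189, 220 and 173, and its partner Mesp1 had 160, 190 and 166. Lfng, the glycosyltransferase that modulates Notch receptors, had 223, 246 and 238, and Cer1, a secreted inhibitor seen at the front of the PSM, had 225, 274 and 184. All 12 values lie inside the range of genes with no known role in the PSM. Of 64 such genes of adult organs, 7 were measured, with mean signals from 86.0 (Sftpb, a lung surfactant protein) to 523 (Krt10, a skin keratin) and a median of 260, and 0 lay above the median gene in all 3 pools. Signals in that range are reported as levels of the probe set only.

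**Figure D1:**
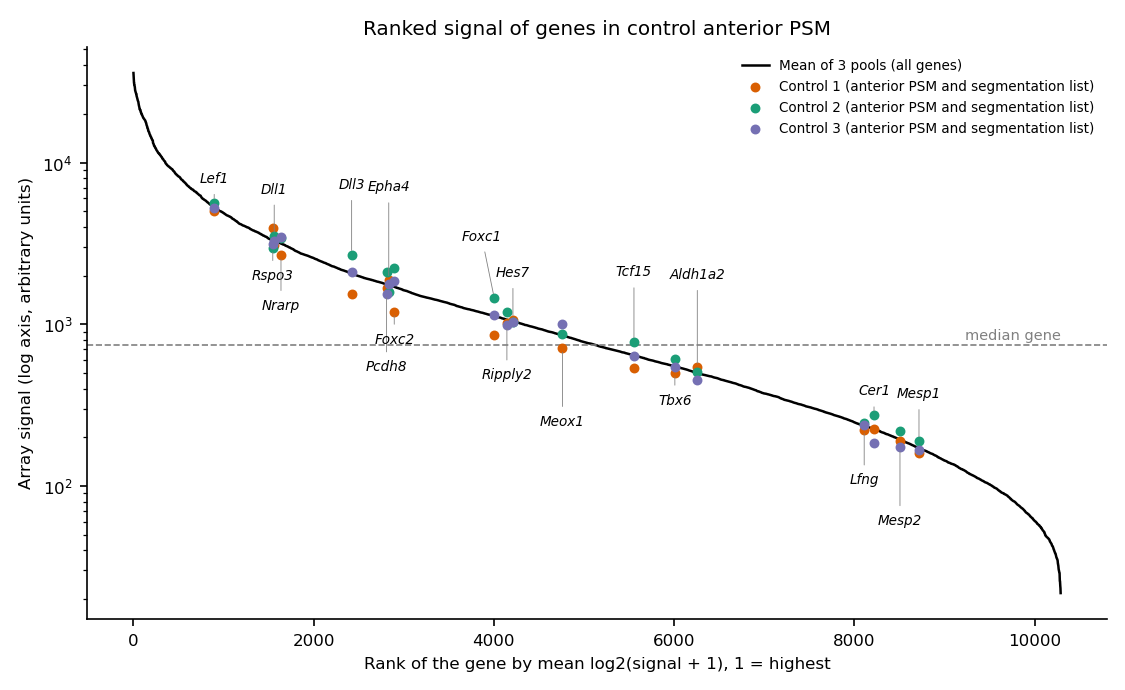
Signal (log axis) against the rank of the gene among 10290; the line is the mean of 3 pools and the points are the 3 pools for each of 19 anterior PSM and segmentation genes. The list spans the curve from Lef1, at a mean of 5308, to Mesp1, at 172, and the dashed line is the median gene, at 739.

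Genes of the tail bud and rear PSM had signals as high as those of the anterior list, although that region was cut away. Of 20 listed genes, 16 were measured (T, Msgn1, Fgf4 and Hes3 were not analysed here) and 11 lay above the median gene in all pools, with a median percentile of 61.7. Dusp6, a phosphatase induced by FGF signalling, had 8389, 5439 and 5488. Cdx2, a caudal homeobox factor, had 5265, 6034 and 5924, and its paralogue Cdx4 had 2926, 2162 and 2318. Nkx1-2, a marker of the progenitors beside the primitive streak, had 5247, 4480 and 4364. Cyp26a1, the enzyme that breaks down retinoic acid in the tail, varied more, with 3104, 2476 and 4015. The measured genes of the list that did not lie above the median gene were Wnt3a, Fgf3, Fgf17, Cdx1 (536, 486 and 540) and Fgf15 (390, 314 and 396). The summed signal of the 16 genes was 36250, 31497 and 34930, highest in pool 1 and lowest in pool 2, which is the reverse of the order of the anterior list (27036, 31492 and 28923). For 11 of the 16 genes pool 2 was the lowest pool, against 32.7% of all genes, and for 13 of the 19 anterior genes it was the highest, against 32.4% of all genes. In these bulk samples, fewer cells of a kind and less RNA per cell cannot be told apart.

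Somite genes were at the other end. Of 17 genes of epithelial and differentiating somites, 5 were measured and 0 lay above the median gene in all pools. Twist1, a mesenchymal bHLH factor, had 361, 562 and 646, and Pax3, of the dermomyotome, had 312, 365 and 407. Tbx18 (140, 155 and 154) and Dmrt2 (87.5, 155 and 150) were in the lowest 25% of genes. The regulators Pax1, Pax9, Myf5, Myod1, Myog and Uncx were not analysed here.

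The highest signals belonged to the machinery of protein synthesis. Rps20 led with 36456, 37913 and 33116 (35828 ± 2460), followed by Rps29 (34876 ± 3121), Rps3a1 (33864 ± 2560) and Rpl13a (32880 ± 2343), all proteins of the cytosolic ribosome. In every one of the 39 neighbouring pairs of the top 40 genes the values overlapped across pools. Within pools, Rps29 exceeded Rps3a1 in all 3, while Rps20 did not exceed Rps29 in pool 2. Means fell from 35828 at rank 1 to 25367 at rank 40. That gap is under the probe set yardstick, so the order of the 40 genes is not resolved. The top 1% held 103 genes (1% of all genes) and 12.6% of the summed signal, and the top 10% held 1029 genes and 52.7%. In 88 of the 103 genes membership held in each pool on its own.

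Of 48 cytosolic ribosomal proteins, 34 were in the top 1% and 38 in the top 10% (79.2%). They ranged from Rps20 down to Rpl39l, a paralogue with a signal of 45.4. The 76 mitochondrial ribosomal proteins gave 0 in the top 1% and 8 in the top 10%, led by Mrpl12 at 8066, although 73 of the 76 lay above the median gene. These ribosomal counts lean on probe sets whose names end in x, s or a. Those in x or s can bind transcripts of other genes, ribosomal pseudogenes among them, and those in a bind alternative transcripts of the same gene. Of the 48 cytosolic genes, 25 had no other probe set, and with plain probe sets alone 6 were in the top 1% and 8 of 23 in the top 10%. The lower counts do not measure cross-binding alone, since probe sets ending in a were left out too.

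Translation factors gave 9 of 56 genes in the top 1%, led by the elongation factor Eef1a1 (29478, 30046 and 26002) with Naca (26644 ± 1718), Pabpc1 (26533 ± 1733) and Eif5a (25719 ± 2388). RNA processing gave 10 of 60, led by the spliceosomal protein Snrpe (28245 ± 1730), with the nucleolar protein Npm1 (26805 ± 2457) and the splicing factor Srsf1 (25819 ± 1951), and 47 of the 60 were in the top 10%. Chromatin proteins gave 2 of 23, of which the nucleosome-binding protein Hmgn1 had rank 5 at 31991 ± 2030. Chaperones gave 6 of 87, with Hspa8 (29395 ± 1842) and Hsp90aa1 (25396 ± 1855), which fold newly made proteins. Replication and mitosis gave 3 of 34, with the GTPase Ran (26529 ± 1449), and 23 of the 34 were in the top 10%. Respiratory chain genes gave 5 of 93, with Uqcrb (27015 ± 1381) and cytochrome c, Cycs (25866 ± 1414), and 53 of the 93 were in the top 10%. The proteasome gave 0 of 70 in the top 1% and 32 in the top 10%. Cytoskeletal genes gave 5 of 38, led by gamma-actin, Actg1 (27864 ± 1901).

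Outside these categories stood 27 genes of the top 1%. Bex1, a small protein of the brain-expressed X-linked family, had 28227, 30890 and 27439 and rank 17, and the RNA-binding proteins Serbp1 (27838 ± 1959) and Pabpn1 (26890 ± 1136), the dynein light chain Dynll1 (25453 ± 2066) and the mitochondrial import receptor Tomm20 (25367 ± 1525) were also in the top 40. Hoxb5os, annotated as the antisense transcript of a Hox gene and picked out after its values were seen, had 24827, 22349 and 20481 on 1 probe set, while Hoxb5 itself had 302, 315 and 346. Fscn1, an actin-bundling protein also picked out after its values were seen, had 23791 ± 1510.

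Genes for glucose uptake and lactate production had high signals. The glucose transporters Slc2a3 (19932, 21229 and 19356) and Slc2a1 (21227, 20075 and 18566) were both in the top 1%. Their lowest probe sets had means of 139 for Slc2a3 and 8392 for Slc2a1. Ldha, which turns pyruvate into lactate, had 22346, 25207 and 22489. Glycolysis gave 2 of 14 genes in the top 1%, and 4 without pool 1, when Aldoa and Tpi1 were added. Aldoa, a glycolytic aldolase, had 12597, 21992 and 17051, and its place was outside the top 1% only with pool 1 included.

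Ligands and receptors were compared by their position against the median gene. Of 91 listed ligands 51 were measured, and 15 of them (29.4%) lay above the median gene in all pools, against 46.5% of all genes, with a median percentile of 39.7. Of 86 listed receptors 69 were measured, and 35 (50.7%) lay above it, with a median percentile of 54.8. In the top 10% of genes stood 1 ligand, Igf2, and 2 receptors, Ptch1 and Tgfbr1. The other probe set of Igf2 had a mean of 290, against 11661 for the one used. The difference between ligands and receptors was not tested, and each share concerns the measured genes only.

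**Figure D2:**
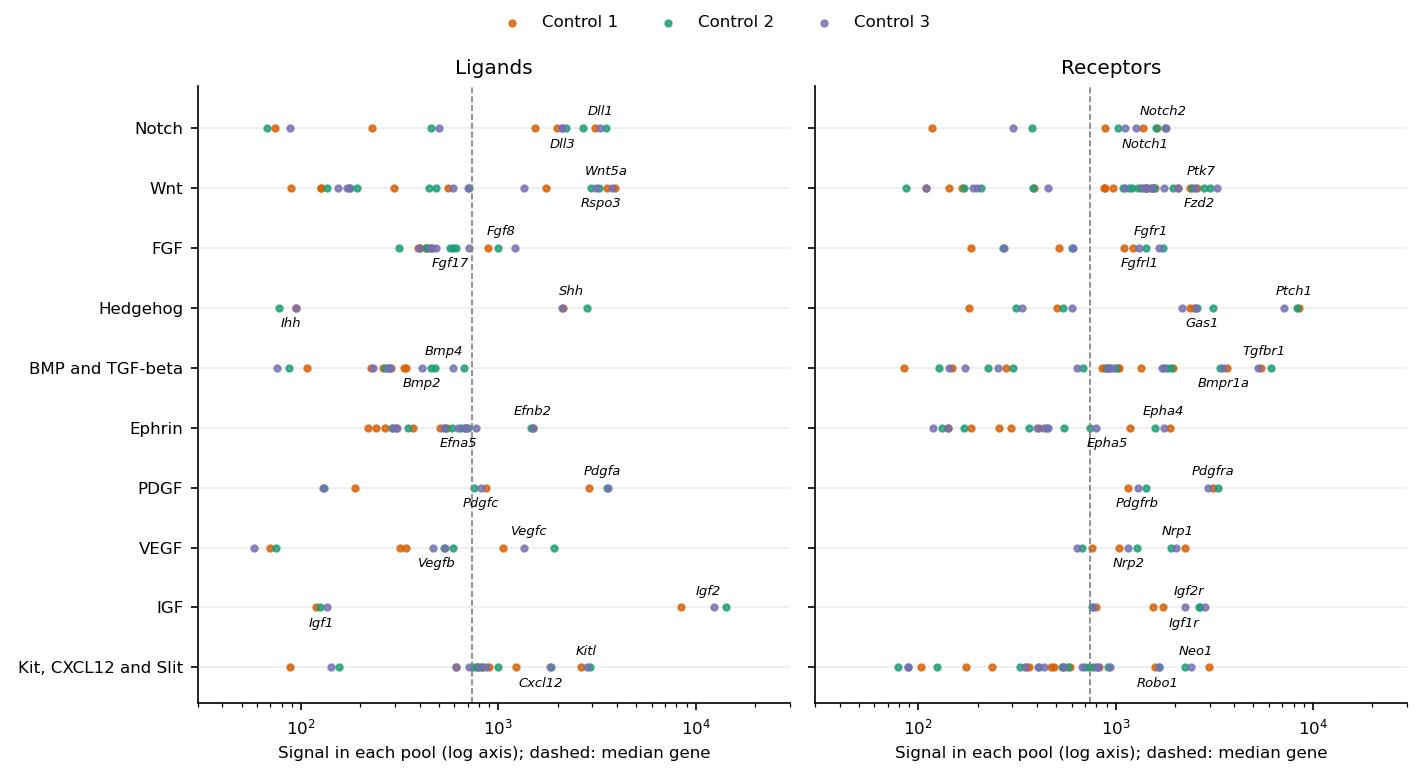
Signal in each pool (log axis) of measured ligands and receptors by pathway, 3 points for each gene, with the 2 highest genes of each row named and the median gene (739) dashed. Ligands of the BMP and TGF-beta family all lie to the left of the line, whereas Ptch1 (mean 7992) and Igf2 (mean 11661) lie far to its right.

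Notch ligands and receptors lay above the median gene in 3 of 5 and 3 of 4 cases. Among ligands, Jag1 (1981, 2211 and 2092) joined Dll1 and Dll3 above the median gene, while Dll4, the endothelial ligand, had 73.8, 66.9 and 87.6. Notch1 (1376, 1598 and 1273), Notch2 (1625, 1780 and 1804) and Notch3 (888, 1034 and 1113) lay above the median gene, and Notch4, an endothelial receptor, had 117, 379 and 302. Adam10, the protease that sheds the receptor, had 3648, 3945 and 3833, and Mib1, the ubiquitin ligase needed by the sending cell, had 2706, 2765 and 2394. Rbpj, the DNA-binding partner of the cleaved receptor, had 1960, 1750 and 1882. Of 8 nuclear effectors and targets, 5 lay above the median gene in all pools, and Hes1, at 650, 820 and 823, did so without pool 1. The gene for the presenilin Psen2 (144, 188 and 208) and Ncstn (102, 67.2 and 101), subunits of the enzyme that frees the receptor's intracellular part, lay in the lowest 25% of genes.

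Of 8 measured genes listed as ligands of Wnt signalling, 2 lay above the median gene. They were Wnt5a (3570, 3258 and 3779), which acts without beta-catenin in axis extension, and Rspo3 (3912, 2959 and 3122). Rspo3 is not itself a Wnt and raises Wnt receptor levels. The other probe set of Rspo3 had a mean of 83.6. Wnt3a, the ligand of the tail bud, had 558, 444 and 593. Wnt5b differed by pool, with 1755, 712 and 1348. Of 14 receptors 10 lay above the median gene, with Ptk7 (2064, 2818 and 3276), a planar polarity receptor, Fzd2 (2392, 3013 and 2533) and Fzd3 (2575, 2440 and 2077) the highest. Fzd5 had 109, 86.5 and 110. Ctnnb1, beta-catenin itself, was in the top 1% with 22647, 21949 and 19370, while its lowest probe set had a mean of 318. The targets Axin2 (839, 1096 and 1295) and Sp5 (1175, 1142 and 1149) lay above the median gene. Secreted inhibitors were above it in 3 of 8 cases, Frzb (2421, 2070 and 2393), Sfrp2 (1239, 1920 and 1790) and Dkk1 (997, 1221 and 1232).

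FGF signalling had 1 of 6 measured ligands above the median gene, Fgf8, the main ligand of the PSM gradient, with 887, 1001 and 1212. Fgf17 had 403, 588 and 714, and Fgf3 had 459, 429 and 449. Fgfr1, the receptor of the PSM, had 1106, 1746 and 1667, while Fgfr2 (518, 604 and 610) and Fgfr3 (185, 270 and 271) lay below the median gene. The feedback genes were higher in the ranking: 8 of 11 lay above the median gene, among them Dusp6, Dusp4 (5746, 4834 and 5129), the ETS factor Etv5 (3916, 3461 and 3936) and Il17rd (3354, 3113 and 3245), a membrane antagonist. Egr1, an immediate early gene, stayed at 77.5, 62.1 and 56.8. Heparan sulphate carriers that present FGFs included Gpc3 (8041, 5889 and 5831) and Sdc1 (5666, 4687 and 4659), both in the top 10% and both highest in pool 1.

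Retinoic acid genes differed by step. Aldh1a2, the enzyme that makes retinoic acid in somites and front PSM, had 540, 510 and 452, and Rdh10, which acts just before it, had 738, 636 and 736. Neither lay above the median gene in all pools, nor did Dhrs3 (135, 119 and 108), which turns retinaldehyde back into retinol, or any of the 4 measured nuclear receptors. The receptor Rarg had 441, 604 and 573. The carriers Crabp1 (6308, 7728 and 8016) and Crabp2 (4279, 6126 and 5526), which bind retinoic acid in the cytoplasm, were in the top 10%.

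Of 5 measured Hedgehog receptors and co-receptors, 3 lay above the median gene. Ptch1, the receptor that is itself a target of the pathway, had 8484, 8331 and 7162 (94.9th percentile), while its other probe set had a mean of 115. Smo, the transducer that Ptch1 restrains, had 2395, 2599 and 2177, Gas1, a co-receptor, had 2502, 3132 and 2569, and Gli3 had 2442, 2571 and 2590. Gli1, the other common target, had 256, 341 and 375. Shh, the ligand of notochord, floor plate and gut, had 2133, 2832 and 2096 in this dissection.

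In the BMP and TGF-beta family 0 of 6 measured ligands lay above the median gene. Bmp4 had 335, 672 and 589, Bmp2 had 340, 479 and 409, and Nodal had 107, 87.4 and 75.6. Of 11 receptors 7 lay above it, led by Tgfbr1 (5467, 6148 and 5266), Bmpr1a (3666, 3397 and 3523) and Bmpr2 (1963, 1813 and 1728). Of 4 Id genes, common targets of BMP signalling, Id2 had 6349, 7251 and 7071, Id3 had 3424, 3158 and 3846, Id1 had 3309, 2939 and 3057, and Id4 had 121, 109 and 140. Bambi, a decoy receptor, was the 1 of 6 measured inhibitors above the median gene, with 1442, 1498 and 2036.

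Among the remaining systems, Igf2, a growth factor expressed from the paternal allele, had 8422, 14198 and 12363, and its receptors Igf1r (1740, 2646 and 2262) and Igf2r (1551, 2694 and 2830) were likewise lowest in pool 1. All 3 measured IGF receptors lay above the median gene. Pdgfra, a marker of paraxial mesoderm, had 3129, 3318 and 2934, and its ligand Pdgfa had 2892, 3563 and 3618. Efnb2, the ephrin of the rear somite border, had 1505, 1460 and 1503, and with Epha4 it made up the 2 of 15 measured ephrins and Eph receptors above the median gene in all pools. Kitl, a survival factor for migrating cells, had 2631, 2920 and 2811, and Cxcl12, a guiding chemokine, had 1224, 1853 and 1825, whereas its receptor Cxcr4 had 363, 577 and 544.

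Paralogue choice was read with the probe set yardstick, and most pairs did not pass it. In 49 of 58 families at least 2 members were measured, which gave 184 pairs. In 169 of them the same gene was higher in all 3 pools, but 23 (12.5%) passed the yardstick, in 16 families, against 14.4% of all pairs of genes. The share is close to that background, so pairs within these families did not stand out as a class. Some families group genes by function and not by descent, such as the CREB coactivators (Crebbp, Ep300 and the Crtc genes). The share is therefore not one of paralogues alone. In all 23 pairs every probe set of the higher gene lay above every probe set of the lower gene. Where the higher gene had 1 probe set, as with Pkm and Ldha, this followed from the call, since each gene was read by its highest probe set. Other pairs were apart only at low signal: the lowest probe set of Creb1 had 151.5, against 96.8 for the highest of Crem.

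In 21 of the 23 pairs the lower gene lay at or below the 40th percentile, at a mean of 410 or less, in the range of the adult-organ genes or under it. Such a reading is not shown to be above background, so for these pairs the signals are given and the size of the gap is not. Among genes above the 40th percentile alone, 2 pairs passed. In glycolysis Ldha exceeded Ldhb (1256, 950 and 1166), the heart form, by 4.38 on the log2 scale, and Aldoa exceeded Aldoc (1051, 702 and 737), the brain form, by 4.36. In pool 1 alone the aldolase gap was 3.58, under the yardstick. Pkm, the pyruvate kinase of most tissues, had 8263, 11148 and 9952, and Pklr, the form of liver and red cells, had 28.9, 47.2 and 56.4. Lin28a, the RNA-binding protein of early progenitors, had 6779, 10364 and 8797, and Lin28b had 40.7, 71.8 and 67.0. Pklr lay under the 5th percentile of signal in each array (59.6, 65.7 and 60.6), and Lin28b lay close to it. Igf2 also passed against Igf1 (119, 124 and 136).

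Regulators of transcription gave further pairs of this kind. Creb1, the target of A-CREB inhibition, had 2764, 2621 and 2736, and Crem, its paralogue, had 99.9, 88.4 and 103. Of the coactivators, Crebbp (2225, 3268 and 2889) passed against Crtc1 (64.1, 44.1 and 40.9) and Crtc3 (143, 150 and 137), and Ep300 (1827, 2264 and 2085) passed against Crtc1. Id2, Id3 and Id1 passed against Id4 (121, 109 and 140). Sall4 (9241, 10364 and 9600), a zinc finger factor of progenitors, passed against Sall3 (240, 413 and 479), and Hif1a (7956, 7709 and 7461) against Epas1 (215, 415 and 245), both oxygen-regulated factors. Smad4 (7292, 7820 and 7112), the shared partner of TGF-beta and BMP Smads, passed against the inhibitory Smad7 (289, 478 and 463).

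Adhesion and cytoskeletal genes gave 6 pairs past the yardstick. Cdh2, N-cadherin, had 7550, 7667 and 6717 and passed against Cdh3 (191, 301 and 286), Cdh4 (144, 185 and 187), the endothelial Cdh5 and Cdh6 (455, 417 and 342). Its gap to Cdh1, the epithelial E-cadherin at 1655, 2367 and 2023, stayed under the yardstick. Vimentin, Vim (8340, 9462 and 8200), passed against nestin, Nes (188, 149 and 169). Itgav (3113, 2496 and 2687), an integrin subunit for fibronectin, passed against Itga4 (155, 101 and 171). Other families had no pair past the yardstick, among them Cdx, Foxc, Mesp, Hes and Hey, Tcf and Lef, Gli, Myc and the D cyclins. Their members included Mycn, at 6398, 8160 and 8344, and Ccnd2, at 13634, 13182 and 12884, whose order against their paralogues is not resolved.

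Hox genes order tissue along the body axis, and the groups with high numbers are switched on later and further back. Hoxa9 (8579, 10559 and 9798) and Hoxc8 (8156, 7389 and 7081) had the highest signals, followed by Hoxc4 (4530, 4510 and 4385), Hoxb9 (2294, 5239 and 4553) and Hoxd1 (3755, 3907 and 3947). The other probe set of Hoxa9 had a mean of 627. Beyond group 9 the signals were low: Hoxa10 had 160, 338 and 418, Hoxc10 had 39.3, 317 and 230, and Hoxd13 had 68.0, 82.6 and 88.1. Groups 11 and 12 were not analysed here. Both group 10 genes were lowest in pool 1, as were Hoxb9, Hoxc9 (880, 1580 and 1350) and Hoxd9 (1290, 2899 and 2559). Hoxc10 had the widest range of them, at 2.98 on the log2 scale. Within a group, the only pair past the yardstick was Hoxc4 above Hoxa4 (121, 193 and 180).

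**Figure D3:**
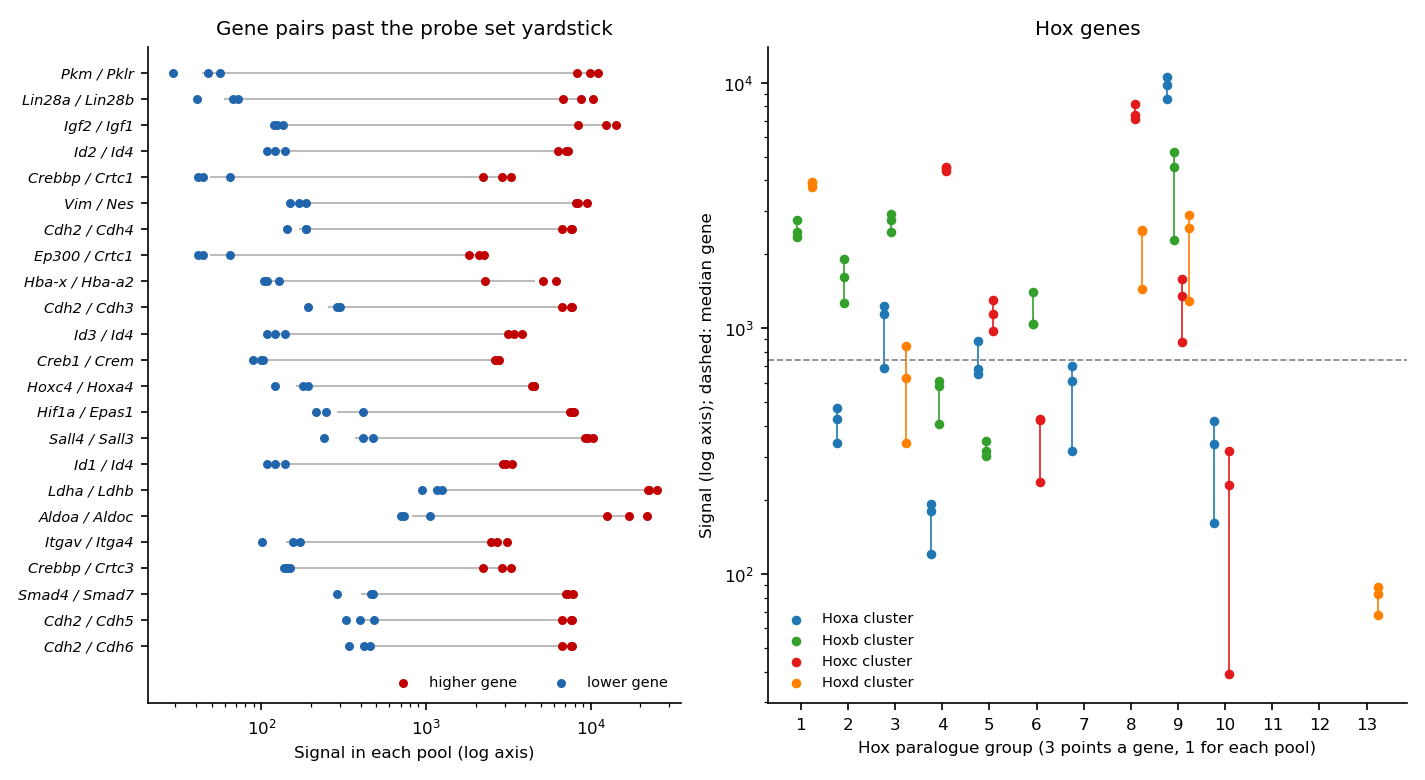
Left, signals in the 3 pools (log axis) of the 23 gene pairs whose mean gap passed the yardstick of 4.14 on the log2 scale, higher gene in red and lower gene in blue. Right, signals of Hox genes by paralogue group, coloured by cluster, with a line from the lowest to the highest pool. Each gene is read by its highest probe set, and means reach 9646 for Hoxa9 and fall to 79.6 for Hoxd13.

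Markers of tissues that border the PSM also had signal in these pools. Among markers of blood, Hbb-y, an embryonic beta globin, had 14540, 19912 and 20248 (98.7th percentile), Hbb-bh1 had 13459, 13327 and 16127, and Hba-x, the embryonic alpha globin, had 2280, 5141 and 6182. The adult-type Hba-a2 had 128, 104 and 108. The 10 measured blood markers summed to 32552, 40653 and 45156, and 4 of 10 lay above the median gene. The erythroid regulators Gata1 (72.0, 87.5 and 85.5) and Klf1 (114, 75.2 and 118) lay in the lowest 10% of genes. Both beta globins were read only by x, s or a probe sets, and without such probe sets the mean sum of the list fell from 39454 to 6781. The order of blood against gut endoderm turned with it, since the sum of the gut list was 21719 with such probe sets and 13470 without them.

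Gut and epithelial genes spanned a wide range of signals. Krt8 (5776, 5117 and 5844) and Krt18 (4230, 4844 and 5080), the paired keratins of simple epithelia, Epcam (2033, 1942 and 1938) and Apela (3584, 3038 and 3298), a secreted peptide, lay above the median gene. The 16 gut endoderm markers measured summed to 22425, 20754 and 21977, and 5 of 16 lay above the median gene in all pools. Regulators of endoderm were lower, with Foxa2 at 385, 352 and 289, Sox17 at 557, 684 and 539 and Foxa3 at 118, 109 and 88.5. Gata6, of the same list, had 462, 459 and 582. Foxa1 had 923, 980 and 639, above the median gene in pools 1 and 2. Surface ectoderm shares the keratins and Epcam, and its regulators Trp63 (159, 242 and 267), Grhl2 (185, 328 and 358) and Grhl3 (210, 274 and 323) were all lowest in pool 1 and below the median gene.

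Markers of visceral endoderm and yolk sac varied most between pools. Their 10 measured genes summed to 9369, 3483 and 6240, 2.69-fold from highest to lowest. Ttr, a carrier of thyroid hormone and retinol, had 3857, 876 and 2073, Afp, the fetal serum protein, had 2113, 617 and 1308, and Apob had 572, 123 and 279. Pool 1 was the highest for 7 of the 10, against 39.7% of all genes, and pool 2 the lowest for 7 of the 10, against 32.7%. Spink1, of the gut endoderm list, had the same order with 2101, 664 and 958. For Dab2 (533, 534 and 592), Lrp2 (471, 512 and 535), Apoa2 (132, 116 and 89.3) and Cubn (highest in pool 3 and lowest in pool 2) the order was different, Cubn and Apoa2 being low in signal.

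Neural genes were led by Sox2 (3278, 4229 and 3468), a factor of neural and tail bud progenitors, Irx3 (2692, 3097 and 2963), Ncam1 (2281, 2528 and 2161) and Sox3 (823, 1550 and 1227), the 4 of 12 that lay above the median gene in all pools. Zic2 had 314, 1146 and 1026. Of later neural genes, Pax6 (212, 230 and 192) and Neurog2 (132, 132 and 100) lay in the lowest 25% of genes. Stmn2, of the same list, did not, with 1006, 702 and 989 (54.7th percentile). Of 6 measured neural crest markers, Ets1 (1299, 1786 and 1361) and Snai2 (1028, 1011 and 1053) lay above the median gene, and Sox9 (104, 95.2 and 109) was low. Of 6 markers of notochord and floor plate, Shh and Cdx2 lay above the median gene, Cdx2 being also a tail bud gene, while Foxa1 (923, 980 and 639) did so in pools 1 and 2 and Foxa2 in none.

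Endothelium had 2 of 17 genes above the median gene, Aplnr (8119, 7635 and 7134), the apelin receptor that early mesoderm also expresses, and Egfl7 (864, 904 and 922). Kdr, the VEGF receptor of blood vessels, had 761, 675 and 634, and Cdh5, a junction protein of vessels, had 325, 480 and 400. Pool 2 was the highest for 13 of the 17 genes, against 32.4% of all genes, and pool 1 the lowest for 13, against 40.7% of all genes. Lateral and intermediate mesoderm had 5 of 14 above the median gene, among them Hand2 (2171, 2271 and 2047), Foxf1 (1921, 2004 and 2398) and Cited2 (4605, 5440 and 5447). Pax8, of the intermediate mesoderm, had 64.8, 55.8 and 55.9. Heart had 1 of 4, the smooth muscle actin Acta2 (2110, 2147 and 2283), with Actc1 at 87.6, 201 and 143. Primordial germ cells had 1 of 5, Ifitm3, while the germ cell gene Dppa3 had 104, 133 and 82.4. The share that cells of each tissue made up of a pool was not measured.

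**Figure D4:**
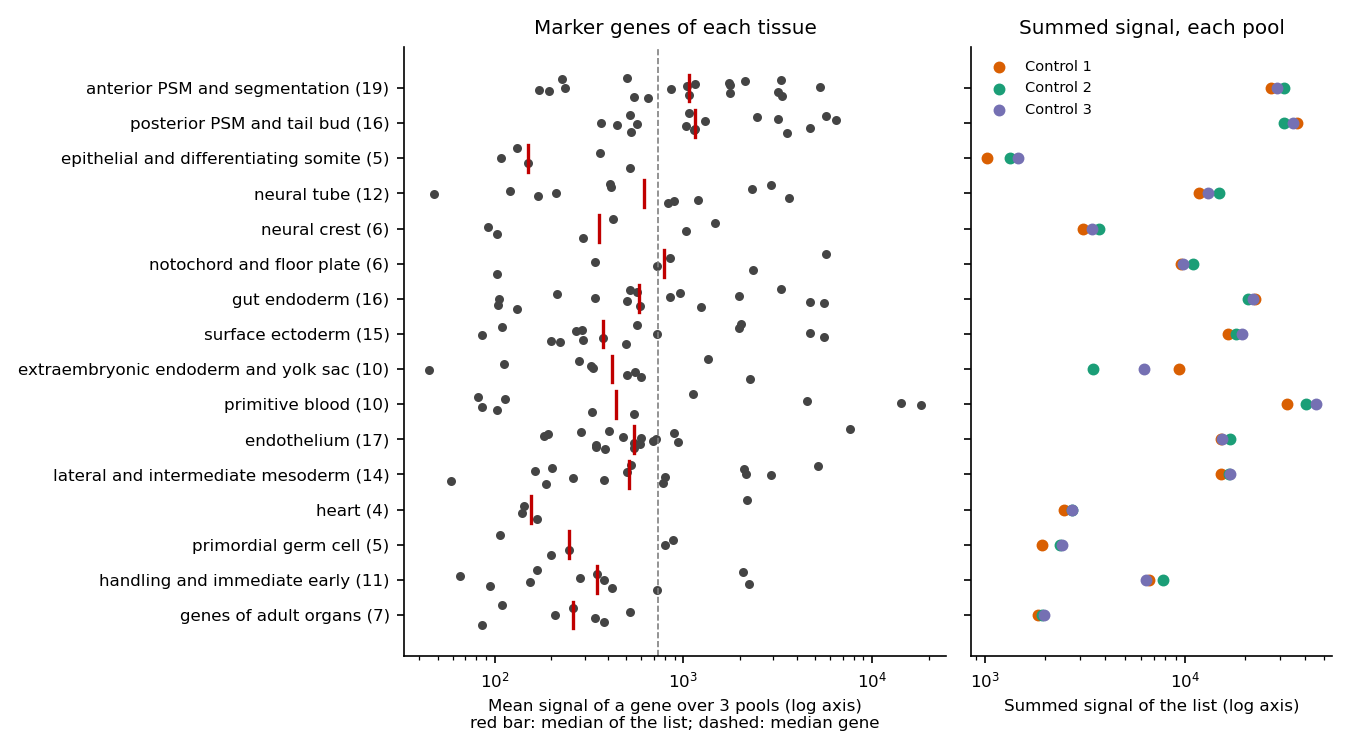
Left, mean signal over 3 pools (log axis) of each measured marker gene by tissue, with the number of genes in brackets, the median of the list as a red bar and the median gene dashed. Right, summed signal of each list in each pool (log axis); the yolk sac list is spread most, from 3483 in pool 2 to 9369 in pool 1.

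Of 18 listed immediate early and heat shock genes, which respond to handling, 11 were measured and 2 lay above the median gene, against 46.5% of all genes. These were Ier2 (2009, 2357 and 2346) and Dnajb1 (2046, 2441 and 1726). Jun had 328, 525 and 400, and Hspa1b had 306, 537 and 298. Xist, the transcript of the inactive X chromosome, had 4911, 9201 and 10701, and the Y-linked gene Uty had 110, 75.4 and 19.9. The labels do not give the sexes of the pooled embryos.

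The spread between pools was small for most genes. The range from lowest to highest pool had a median of 0.32 on the log2 scale over all genes and 0.25 over the 5145 genes whose mean lay above that of the median gene, and 339 genes (3.29%) had a range above 1. Between pools 2 and 3 alone the median difference was 0.13. Pool 1 was the lowest by more than 2-fold against both others in 99 genes, compared with 14 for pool 2 and 6 for pool 3, and it was the highest by that margin in 13, 3 and 0 genes in the same order.

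Among the 20 genes of widest range in the upper part of the ranking by mean, pool 1 was either the highest or the lowest in every case. Over all 5145 genes of that part, pool 1 was the highest in 47.8% and the lowest in 35.2%. Of these 20, 12 lay below the median gene in at least 1 pool. In 7 it was the highest, led by Rpgrip1, a ciliary protein, at 4244, 1433 and 671, then Ttr, Afp, Spink1, Pan3, Wnt5b and Chrac1 (2905, 1297 and 1207). In 13 it was the lowest, among them the histone methyltransferase Ehmt2 (487, 2003 and 1713), the kinase Akt1 (608, 1987 and 1677), Get3 (470, 1501 and 1324), Senp3 (2427, 6523 and 5369), Ykt6 (1504, 3437 and 4171), Igfbp5 (864, 2062 and 1732) and Hba-x. Pool 1 also had the highest 3' to 5' ratios and BioB signals, and the part of these in the values was not tested. The 7 genes in which it was highest include 3 of the endoderm and yolk sac lists, Ttr, Afp and Spink1.

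**Figure D5:**
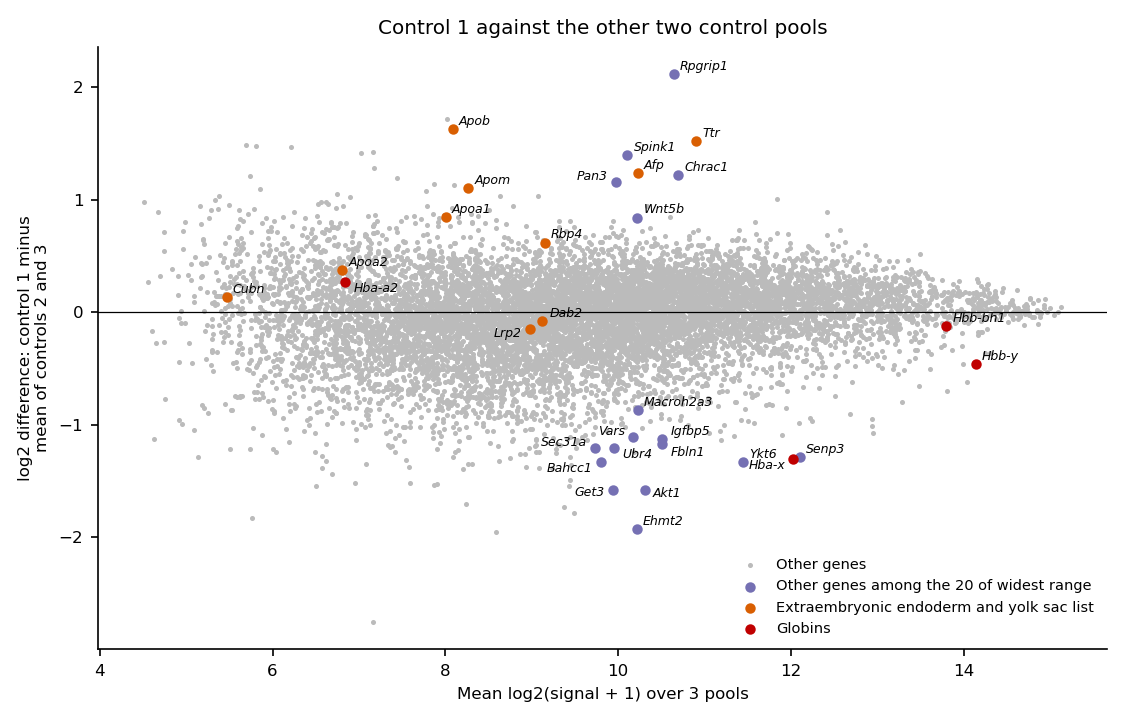
Log2 difference of pool 1 minus the mean of pools 2 and 3, against mean log2(signal + 1), for 10290 genes. Globins (red) lie at or below 0 except Hba-a2, several yolk sac genes (orange) lie above 0, and the other genes of widest range (violet) lie on both sides.

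Probe sets of the same gene could disagree by much more than the pools. The widest gap was in Acly, which makes cytosolic acetyl-CoA, where 1 probe set gave 10101, 8436 and 8853 and another gave 18.1, 21.2 and 13.9, a gap of 8.94 on the log2 scale against a reading under the 5th percentile of each array. In Rps18, rank 6 with 33112, 32263 and 29087, another probe set gave 45.4, 90.2 and 80.9. Mtm1, Rpl35, Cct4, Fbxw11, Tubb4b, Scd2, Ncl and Mdh1 completed the 10 widest, with gaps of 7.80 or more. In each case all 3 pools agreed on which probe set was higher.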

How the data were processed

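Labelling used the 3' IVT Express kit, per the labels' protocols. The submitters' processing notes list Expression Console from Affymetrix and the MAS5 algorithm, with no version. The authors deposited 1 linear signal intensity per probe set and array, and the values were used as deposited. What they were scaled to, and why the table holds 19606 probe sets (55 of them array controls), is not given in the sources used here. Of the 19551 others, 494 had several symbols and 1709 had none in the platform annotation, and neither kind was used. Of the 17348 kept, 17316 had an Entrez identifier found in RefSeq (GRCm38.p6), and 0 symbols were replaced.

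From these intensities, log2(signal + 1) was averaged over the 3 pools, the highest probe set of each gene was kept, and genes were ranked, with Python 3.11.15, numpy 2.4.6, pandas 2.3.3 and matplotlib 3.10.9. A mean ± SD is over linear signals. The code was tested on simulated data. Named genes were the 40 of highest mean, members of the lists, the 20 of widest range among genes whose mean lay above the median gene and the 10 of widest probe set gap, and Rik, Gm, LOC and clone symbols were not named. Members and lists were chosen with earlier results of these data known, and the roles of some list members were corrected, and 1 family removed, after the table was seen. Alternatives were offsets of 16 and 64 in place of 1, quantile normalization, median centring, averaging the probe sets of a gene, leaving out x, s and a probe sets, keeping genes above the 40th percentile, yardsticks at the 75th and 95th percentiles, and leaving out each pool. With 3 arrays the precision is limited, and no paired or between-group test was made.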

Additional observations from a re-analysis of the deposited data

How the results depend on the processing

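No paired analysis was possible because 1 group of 3 pools was described and no groups were compared. Of 210 values recomputed over 12 alternatives, 176 stayed within 1 SD between pools or, for counts, within 1.5 times, and 34 moved; the cause was not tested unless the alternative itself removed genes or probe sets. The median percentile of the anterior PSM list moved from 59.7 to 63.2 with averaged probe sets and 64.8 without x, s and a probe sets. Among genes above the 40th percentile it moved to 53.6. Without x, s and a probe sets, ribosomal genes in the top 1% fell from 34 to 6, glycolysis from 2 to 1, and the summed signals of blood, gut endoderm and yolk sac lists from 39454, 21719 and 6364 to 6781, 13470 and 2190. With averaged probe sets the blood and gut sums were 32623 and 16947, and family pairs past the yardstick went from 23 to 14. Genes in the top 1% then went from 5 to 8 for the respiratory chain, 2 to 4 for glycolysis and 10 to 4 for RNA processing. They went from 2 to 4 for chromatin and 0 to 1 for the proteasome. Among genes above the 40th percentile the top 1% held 3 respiratory, 1 glycolytic, 3 cytoskeletal, 2 chaperone and 6 RNA processing genes, 2 pairs passed the yardstick, and 8 ligands and 16 receptors lay above the median gene. The yardstick of 4.14 became 3.98 and 3.61 with offsets of 16 and 64 and 4.33 with the filter. Pairs past it numbered 46 with the 75th and 9 with the 95th percentile as the yardstick. Leaving out 1 pool at a time gave 2 to 4 glycolytic genes (4 without pool 1), 0 to 1 globin (Hbb-y, without pool 1), a yolk sac sum of 4862 to 7817 and a median range of 0.13 (without pool 1) to 0.24, against 0.32. The alternatives for the gut endoderm and yolk sac sums were chosen after seeing the data. Signal near the background of the array limits the genes of low rank.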
